A study of Mus musculus with 2 samples.

Results

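Natural killer (NK) cells inside 143B osteosarcoma xenografts were described across all genes, as 967 of 19826 cell barcodes in the pooled data. They were selected on their transcripts, as barcodes with at least 1 unique molecular identifier (UMI, a tag that marks 1 captured transcript) for at least 2 of the 4 genes Eomes, Ncr1, Prf1 and Gzma, and with none for the myeloid receptors Csf1r and Flt3. Their neutrophil transcripts S100a8 and S100a9 together had to make up under 2% of UMIs. All barcodes had first passed limits of at least 500 UMIs, between 200 and 6000 genes, and under 5% mitochondrial UMIs. The control IgG library gave 145 members out of 8557 filtered barcodes, and the anti-CD3L1 library gave 822 out of 11269.

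143B, a human osteosarcoma cell line, was grown under the skin of female nude mice, which lack a thymus and so make almost no T cells but keep NK and myeloid cells. The mice were 4 weeks old at inoculation and received 10 mg/kg of a human IgG1 control or of anti-CD3L1, a humanized IgG1 antibody to CD3L1 (ITPRIPL1), every 3 days for 4 doses. Immune cells were pulled from the tumors with CD45 magnetic beads and profiled by droplet single-cell RNA sequencing, with 1 library per treatment, each from a set of 3 tumors. The strain of the mice was not given in the sources used here, and whether the tumor sets shared it was not tested for any gene. Since each group had 1 library, no test across samples was possible, every interval below covers counting error only, and treatment cannot be told apart from any other difference between the libraries or tumor sets.

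NK cells are innate lymphocytes that kill stressed or transformed cells without prior immunization. They empty granules of perforin and granzymes onto the target, and they release interferon gamma and chemokines. Germline-encoded activating and inhibitory receptors, in mice largely the Klr families, set whether a contact ends in killing.

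NK cells made up 1.69% of filtered barcodes in the control IgG library (exact binomial 95% interval 1.43 to 1.99%) and 7.29% in the anti-CD3L1 library (6.82 to 7.79%), a 4.30-fold higher share. Neutrophil-rule barcodes numbered 5765 in control and 515 after anti-CD3L1, and a larger neutrophil share lowers the share of every other cell type. Among barcodes outside the neutrophil limit, 2792 in control and 10754 in anti-CD3L1, the NK share was 5.19% (4.40 to 6.08%) and 7.64% (7.15 to 8.16%), a 1.47-fold difference. Members held a median of 11034 UMIs and 3100 genes in control and of 8640.5 UMIs and 2861.5 genes after anti-CD3L1. The other filtered barcodes of the same libraries held medians of 5443 and 8232 UMIs. In all, members contributed 1793341 and 7789245 UMIs. No member barcode occurred in both libraries, although 26 filtered barcodes did.

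The 4 genes of the rule chose the cells, so their presence is no finding. Of the 145 control members, 69 held all 4, 53 held 3 and 23 held 2; of the 822 anti-CD3L1 members, 282, 353 and 187 did. Just outside the rule, 21 control and 156 anti-CD3L1 barcodes held 1 of the 4 genes. In those barcodes Nkg7 stood at 428 and 328 CPM (UMIs of a gene per 1000000 UMIs of the summed cells), against 742 and 627 CPM in members with 2 genes. Among barcodes with 2 or more of the genes, Csf1r removed 16 control and 150 anti-CD3L1 barcodes, Flt3 removed 0 and 21, and the neutrophil limit alone removed 18 and 2.

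Markers that took no part in the choice carried the NK label. Nkg7, a granule membrane protein needed for killing, had a UMI in 141 of 145 control members and 767 of 822 anti-CD3L1 members, at 809 CPM (768 to 852) and 827 CPM (807 to 848). Il2rb, the receptor chain through which interleukin 15 keeps NK cells alive, was found in 144 and 812 members, at 910 and 895 CPM. Tbx21, encoding T-bet, which shares the control of NK maturation with Eomes, stood at 132 and 196 CPM. Klrd1, the CD94 chain of the NKG2 receptors, stood at 262 and 288 CPM. After each cell had been thinned to 2000 UMIs, Nkg7 was detected in 76.2% of control members (68.4 to 82.9%) and 74.1% of anti-CD3L1 members (71.0 to 77.1%). The same measure in Csf1r-positive barcodes, which should lack the gene, was 0.241% and 1.57%. All 16 genes of the NK marker list had UMIs in members of both libraries.

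T cell markers divided into 2 sets. Cd3e, the invariant chain of the T cell receptor complex, had no UMI in any of 145 control members and UMIs in 3 of 822 anti-CD3L1 members. Cd4, Cd8a, Cd8b1 and Cd5 were also without a UMI in control. Trbc1, a T cell receptor beta constant gene that NK cells are known to transcribe from the unrearranged locus, was found in 126 and 703 members, at 355 and 350 CPM. Other genes of the receptor complex were present. Cd3g was found in 52 and 225 members, at 103 and 66.4 CPM, Trbc2 in 56 and 304 members, at 119 and 143 CPM, Cd3d in 20 and 84 members, at 28.4 and 25.7 CPM, and Trac in 25 and 68 members, at 21.2 and 11.2 CPM. Of the markers of type 1 innate lymphoid cells, relatives of NK cells that sit in tissues, Inpp4b led at 480 and 342 CPM, Itga1 stood at 79.2 and 27.6 CPM, and Zfp683 had no UMI in either library. Cd3e was thus at or near 0, while Cd3g, Cd3d, the T cell receptor constant genes and some innate lymphoid markers were read in members.

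**Figure D1:**
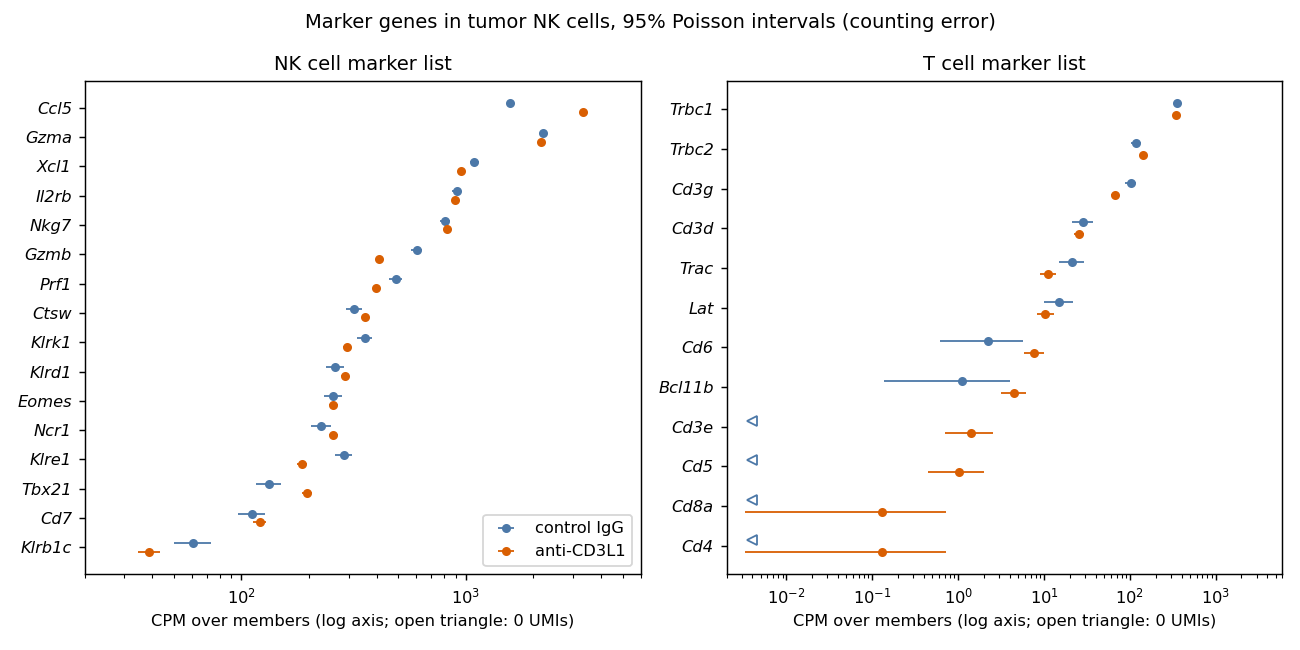
Level of the 16 NK markers (left) and of the 12 T cell markers with a UMI in any member (right), as CPM over all members of a library on a log axis, with 95% Poisson intervals for counting error; control IgG is blue and anti-CD3L1 orange, and an open triangle marks 0 UMIs. Every NK marker lies above 30 CPM in both libraries, whereas Cd3e, Cd4, Cd8a and Cd5 lie at or below 1.41 CPM.

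Against all other filtered barcodes, the genes that stood out most in members were effector genes. Gzma led with a 76.5-fold higher mean CPM, computed with 5 CPM added to both sides. Xcl1 (48.2-fold), a chemokine that draws cross-presenting dendritic cells, Prf1 (47.3-fold) and Nkg7 (47.2-fold) followed. Gzmc, Gzmb, Ctla2a and Il2rb, from 40.7-fold down to 37.8-fold, came next. Klri2 (37.0-fold) and Klre1 (31.0-fold), receptor chains that pair with each other, were also among the 15, with Gm2682, Setbp1, Eomes, Sytl3 and Trbc1. These ratios describe the chosen cells, and Gzma, Prf1 and Eomes were used in the choice.

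Between the libraries, most genes of NK cells lay close together. Among 5796 genes with a mean of at least 20 CPM, the log2 ratio of CPM after anti-CD3L1 to CPM in control had a median of 0.10, and its 5 and 95% quantiles were -0.48 and 0.68. A gene was called when its log2 ratio passed 1 in either direction, a 2-fold difference. By this measure 79 genes (1.36% of those tested) rose and 58 (1% of those tested) fell, 137 or 2.36% together. The counting interval excluded 0 for every one of them. At these UMI totals the CPM minimum and the fold made that nearly certain, so it adds nothing to the 137 calls. Those that fell include S100a8 and S100a9, which were used in the choice of cells. Without the cell of each library with the most UMIs of a gene, all 79 still passed the fold upward, but 39 of the 58 did so downward. After centring on the median gene the split became 56 higher and 74 lower. Of the genes that rose, 31 of 79 also passed the same fold upward in Csf1r-positive barcodes, 38 in free RNA (barcodes of 20 to 100 UMIs), 43 in neutrophil barcodes (those at or over the S100a8 and S100a9 limit of the rule) and 50 in all other filtered barcodes. Of those that fell, 16 of 58 passed it downward in Csf1r-positive barcodes, 24 in free RNA, 14 in neutrophil barcodes and 22 in all other filtered barcodes. The share of all 5796 tested genes past the fold in those classes was not computed. These counts therefore cannot show whether the called genes differ there from other genes. In Csf1r-positive barcodes 11 of the genes that rose had the opposite sign, none past the fold, and 26 of those that fell, 6 of them past the fold. These counts had no minimum CPM in Csf1r-positive barcodes, so genes hardly read there enter. With a mean of at least 20 CPM in both classes, AU020206 alone passed the fold in opposite directions. The neutrophil marker list summed to 858 CPM in control members and 75.9 CPM after anti-CD3L1, and the macrophage list to 126 and 528 CPM. The neutrophil list holds S100a8 and S100a9, which the rule had limited in members, so its sum only describes the chosen cells. The part of RNA from other cells in single ratios was not tested, since the subtraction given below rests on genes that the rule had limited.

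**Figure D2:**
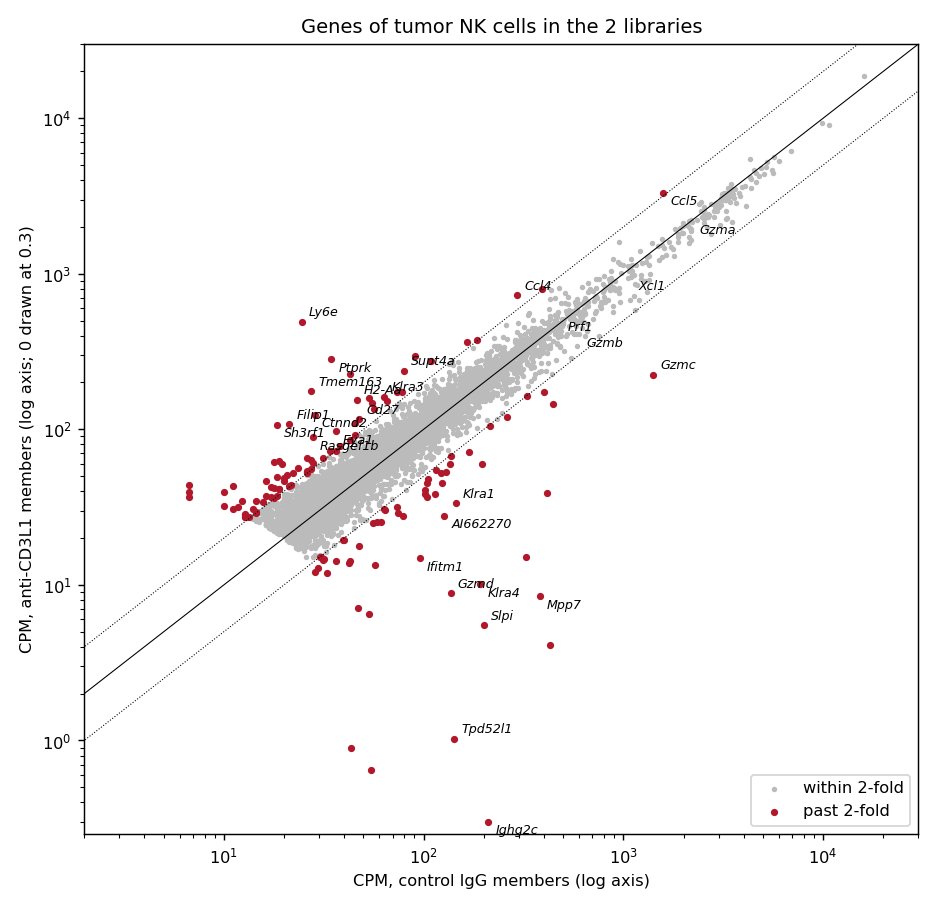
CPM of each of the 5796 tested genes in control IgG members (horizontal, log axis) against anti-CD3L1 members (vertical, log axis, 0 drawn at 0.3 CPM); the solid line is equality, the dotted lines are 2-fold differences and red points lie past them. Ly6e, Ptprk and Tmem163 stand above the cloud, and Gzmc, Klra4, Mpp7 and Tpd52l1 below it, while Gzma, Prf1 and Xcl1 lie near the line.

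Genes of the killing machinery were read in both sets of NK cells. Gzma and Prf1 are rule genes, so their presence in members follows from the choice of cells and their levels are a description. Gzma, the tryptase of cytotoxic granules, stood at 2201 CPM (2133 to 2271) in control and 2167 CPM (2135 to 2200) after anti-CD3L1, a log2 ratio of -0.02 (-0.07 to 0.03). Prf1, the pore-forming perforin, stood at 487 CPM (455 to 520) and 398 CPM (384 to 412), giving a log2 ratio of -0.29. Gzmb, the granzyme that cleaves caspases, stood at 603 and 410 CPM, a log2 ratio of -0.56 (-0.66 to -0.46). Gzma was spread unevenly, with a median of 17 UMIs per control cell, a lowest of 0 and a highest of 199, against a median of 8, a lowest of 0 and a highest of 253 after anti-CD3L1. The cells of the libraries overlapped up to the highest control value, and some anti-CD3L1 cells lay above it. Of the 26 genes of the granule and death ligand list, 21 were tested, none rose, 4 fell and 17 passed neither fold, and the list median was -0.22 against 0.10 for all tested genes. Serpinb9, which shields NK cells from their own granzyme B, stood at 466 and 360 CPM. Fasl, the ligand of the death receptor Fas, stood at 128 and 110 CPM.

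The 4 granule genes that fell were Gzmc, Gzmd, Gzme and Gzmf, neighbouring members of 1 granzyme cluster. The call for Gzmf was lost after thinning to 2000 UMIs per cell, where its log2 ratio was -0.83 against -2.09. Gzmc fell from 1412 CPM (1358 to 1469) to 224 CPM (214 to 235), giving a log2 ratio of -2.65 (-2.74 to -2.57). It was a gene of few cells in both libraries. A UMI was found in 41 of 145 control and 126 of 822 anti-CD3L1 members, and the tenth of members with the most UMIs held 97.2% and 97.5% of them. The control cell with the most carried 603 UMIs, and the anti-CD3L1 cell with the most carried 225. At 2000 UMIs per cell the share of members with Gzmc was 13.3% in control (19 of 143) and 7.76% after anti-CD3L1 (63 of 812), with overlapping intervals, beside 0.0962% and 0.309% in Csf1r-positive barcodes. Gzmd fell from 137 to 8.86 CPM on 6 of 145 and 15 of 822 members, and a single control cell held 173 of its 245 UMIs. All 6 control cells with Gzmd also held Gzmc, as did 8 of the 15 anti-CD3L1 cells. Gzme (46.8 and 7.06 CPM) and Gzmf (56.9 and 13.4 CPM) rested on 7 and 4 control cells. The difference in these genes therefore sat in a small set of heavily loaded control cells. The coding sequences of this cluster are close to each other, so reads may have been shared among its members.

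**Figure D3:**
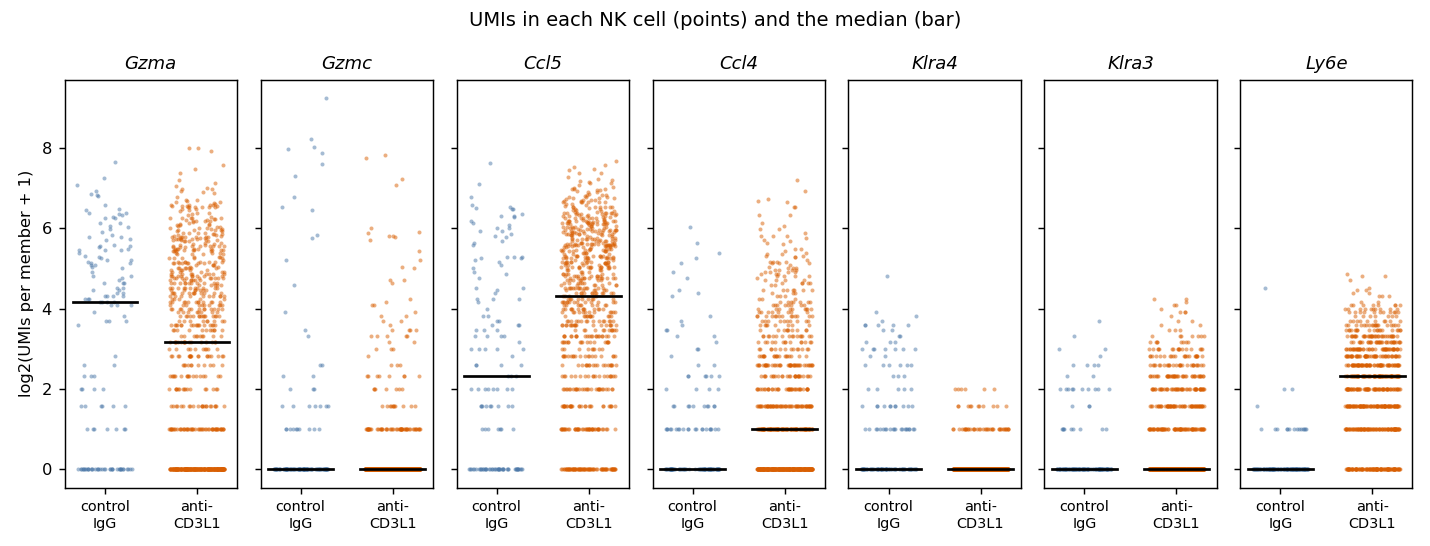
UMIs per NK cell for 7 genes on a log2(UMIs + 1) scale, with each point 1 cell and the bar the median; 145 control IgG cells are blue and 822 anti-CD3L1 cells orange. Gzmc comes from a few cells with up to 603 UMIs, Ly6e changes from a median of 0 to a median of 4 UMIs, and Klra4 does not pass 3 UMIs after anti-CD3L1.

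The promoters of Gzmc and Gzmd, which fell, are shown beside those of Gzma and Gzmb, which did not pass the fold. Each is 250 bases before to 50 after the start site, from RefSeq on GRCm38.p6, written in the gene's own direction. The last bases of the windows of Gzma, Gzmc and Gzmd were found in a transcript of GENCODE, another gene annotation, but those of Gzmb were not. Gzma lies at chr13:113100932-113101231, minus strand, Gzmb at chr14:56262285-56262584, minus strand, Gzmc at chr14:56234608-56234907, minus strand and Gzmd at chr14:56132544-56132843, minus strand. Capitals mark TGTGGT on either strand (ACCACA is its reverse complement), the core that RUNX factors bind.
Gzma: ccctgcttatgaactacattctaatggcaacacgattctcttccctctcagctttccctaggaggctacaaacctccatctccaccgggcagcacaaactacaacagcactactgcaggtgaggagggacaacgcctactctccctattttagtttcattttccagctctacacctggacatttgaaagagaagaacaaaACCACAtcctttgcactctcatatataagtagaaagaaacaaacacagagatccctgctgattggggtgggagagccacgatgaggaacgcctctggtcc
Gzmb: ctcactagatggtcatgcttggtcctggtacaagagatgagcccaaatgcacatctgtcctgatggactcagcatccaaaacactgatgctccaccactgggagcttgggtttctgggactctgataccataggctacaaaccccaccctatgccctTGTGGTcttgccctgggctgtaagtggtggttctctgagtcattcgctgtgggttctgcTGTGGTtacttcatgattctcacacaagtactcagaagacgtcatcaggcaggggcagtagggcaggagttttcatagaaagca
Gzmc: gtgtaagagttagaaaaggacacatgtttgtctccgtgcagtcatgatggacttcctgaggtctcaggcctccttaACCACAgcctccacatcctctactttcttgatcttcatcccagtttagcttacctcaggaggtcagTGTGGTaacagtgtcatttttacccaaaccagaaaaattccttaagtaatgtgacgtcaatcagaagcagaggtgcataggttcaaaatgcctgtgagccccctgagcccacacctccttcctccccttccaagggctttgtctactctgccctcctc
Gzmd: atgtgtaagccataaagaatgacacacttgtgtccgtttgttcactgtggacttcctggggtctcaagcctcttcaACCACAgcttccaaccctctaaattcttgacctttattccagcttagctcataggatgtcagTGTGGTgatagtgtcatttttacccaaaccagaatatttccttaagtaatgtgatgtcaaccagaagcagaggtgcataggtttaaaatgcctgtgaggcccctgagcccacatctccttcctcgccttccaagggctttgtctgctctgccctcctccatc
Gzmc and Gzmd were 82.7% identical over this window, and Gzmd and Gzme 93.4%, gaps counted as differences. TGTGGT was found at 1 place before Gzma, 50 bases from its start, and at 2 places before Gzmb, Gzmc and Gzmd. Such a match stood in 16.8% of all 32851 promoters of this length, and it also stood before Prf1, Ncr1, Nkg7 and Xcl1. A match is only a run of letters, and binding was not measured. Runx3, a factor of this family that cytotoxic lymphocytes require, stood at 1138 CPM (1089 to 1189) and 581 CPM (564 to 598), giving a log2 ratio of -0.97 that did not reach the fold. It passed the fold in 4 other settings, by the most after centring on the median gene, at -1.07.

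Among the soluble mediators, 2 T cell-attracting chemokines rose. Ccl5 rose from 1578 CPM (1520 to 1637) to 3325 CPM (3284 to 3365), giving a log2 ratio of 1.08 (1.02 to 1.13). A UMI was found in 98 of 145 control and 740 of 822 anti-CD3L1 members, and the median per cell was 4 and 19 UMIs. The call for Ccl5 was lost in 4 settings, at a log2 ratio of 0.99 with at least 3 marker genes, 0.97 after centring, 0.85 after thinning and 0.68 when each cell counted equally. Ccl4, a chemokine of activated lymphocytes and macrophages, rose from 295 to 727 CPM, a log2 ratio of 1.30 (1.17 to 1.43), and was found in 64 of 145 control and 514 of 822 anti-CD3L1 members (44.1% and 62.5%). At 2000 UMIs per cell, Ccl4 was detected in 23.8% of control (17.1 to 31.6%) and 44.1% of anti-CD3L1 members (40.6 to 47.6%). Csf1r-positive barcodes also made Ccl4, in 44.7% and 60.6%, at 1387 and 1624 CPM. Ccl5 there stood at 263 and 433 CPM, so both chemokines were higher in those cells too, by log2 ratios of 0.23 and 0.72.

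Ifng, the interferon by which NK cells arm macrophages, stood at 143 CPM (126 to 162) and 210 CPM (200 to 221), giving a log2 ratio of 0.55 (0.36 to 0.75), in 56 of 145 and 432 of 822 members. Xcl1 stood at 1091 and 950 CPM, and Ccl3 at 128 and 179 CPM. Cxcl2, a neutrophil attractant, was called lower, at 443 and 146 CPM, but 1 control cell held 515 of its 795 UMIs. Without the top cell of each library the log2 ratio of Cxcl2 was -0.29. It was -0.13 with S100a8 and S100a9 under 0.5% of UMIs, and 0.65 with at least 3 marker genes per cell. Of the 14 mediators tested, 3 rose, among them Ccl9 (6.69 and 39.4 CPM), which stood at 153 and 585 CPM in Csf1r-positive barcodes, and 2 fell. The list median was 0.06, beside 0.10 for all tested genes.

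Receptors of the Ly49 family, encoded by the Klra genes, showed wide differences between the libraries, in both directions. Klra4, encoding the activating receptor Ly49D, fell from 192 CPM (172 to 213) to 10.1 CPM (8.03 to 12.6), giving a log2 ratio of -4.24 (-4.61 to -3.88). It was found in 71 of 145 control and 56 of 822 anti-CD3L1 members, and no anti-CD3L1 cell held more than 3 UMIs, against up to 27 in control. Klra8, encoding the activating receptor Ly49H, fell from 43.5 to 0.899 CPM, from 32 of 145 to 7 of 822 members, and no anti-CD3L1 cell held more than 1 UMI. Klra1, encoding the inhibitory Ly49A, fell from 144 to 33.5 CPM, a log2 ratio of -2.11. Klra3, encoding Ly49C, went the other way and rose from 63.6 CPM (52.4 to 76.4) to 162 CPM (154 to 171), giving a log2 ratio of 1.35, and from 22.8% to 40.0% of members. Klra7, encoding Ly49G, stood at 235 and 189 CPM. At 2000 UMIs per cell, Klra4 was detected in 18.9% of control (12.8 to 26.3%) and 1.97% of anti-CD3L1 members (1.13 to 3.18%), beside 0.0962% and 0.0281% of Csf1r-positive barcodes. The intervals of the libraries did not overlap for Klra4. Klra genes are alike in sequence and their number and alleles vary between inbred mouse strains, and how reads were divided among them was not tested.

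Klra4 and Klra8 both fell, and their promoters are shown side by side, from RefSeq on GRCm38.p6, with Klra4 at chr6:130067222-130067521, minus strand and Klra8 at chr6:130129849-130130148, minus strand. They were 86.0% identical over the same window, gaps counted as differences. Neither holds TGTGGT, so no letter is in capitals.
Klra4: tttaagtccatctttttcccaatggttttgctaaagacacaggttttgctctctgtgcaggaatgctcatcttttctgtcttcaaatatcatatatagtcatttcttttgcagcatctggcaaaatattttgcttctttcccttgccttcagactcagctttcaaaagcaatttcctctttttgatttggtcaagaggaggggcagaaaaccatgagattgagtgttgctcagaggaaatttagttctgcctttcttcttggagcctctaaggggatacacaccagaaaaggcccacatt
Klra8: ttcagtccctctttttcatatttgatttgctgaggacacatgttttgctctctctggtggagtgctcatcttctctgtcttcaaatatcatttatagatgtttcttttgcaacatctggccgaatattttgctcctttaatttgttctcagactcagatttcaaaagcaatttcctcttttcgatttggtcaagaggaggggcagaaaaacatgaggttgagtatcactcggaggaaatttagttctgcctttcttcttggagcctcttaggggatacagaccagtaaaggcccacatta
In control, 22 members held both Klra4 and Klra8, 49 held only Klra4 and 10 only Klra8. After anti-CD3L1, no member held both genes, 56 held only Klra4 and 7 only Klra8.

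The other activating receptors lay nearer to each other. Of 19 tested, 2 fell (Klra4 and Klra8) and none rose, with a list median of -0.26. Klrk1, encoding NKG2D, which senses stress ligands on tumor cells, stood at 354 and 295 CPM. Klri2 (421 and 268 CPM) and Klre1 (286 and 186 CPM) had log2 ratios of -0.65 and -0.62. Crtam, an adhesion receptor of activated lymphocytes, stood at 181 and 248 CPM. Of 17 inhibitory receptors and signalling brakes, 1 rose (Klra3) and 3 fell (Klra1, Klra5 and Klra9), with a median of -0.32. Without the top cell of each library Klra9 was at -0.997 and Klra5 at -0.89, short of the fold, and Klra5 lost its call in 3 other settings too, at -0.95 to -0.96. Klra5 passed the fold on 100 UMIs in 16 control cells and 195 UMIs in 47 anti-CD3L1 cells. Klrc1, encoding the inhibitory NKG2A, stood at 131 and 110 CPM, and Tigit at 35.7 and 45.7 CPM. Of 18 adaptors that carry receptor signals inward, none passed the fold in either direction. Tyrobp, the DAP12 adaptor used by Ly49D and Ly49H, stood at 1105 and 1139 CPM.

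Receptors for cytokines differed most at the interleukin 18 receptor. Il18r1, its ligand-binding chain, fell from 403 CPM (374 to 433) to 173 CPM (164 to 182), giving a log2 ratio of -1.22 (-1.35 to -1.09). It was found in 51.7% of control (43.2 to 60.2%) and 25.6% of anti-CD3L1 members (22.6 to 28.8%) at 2000 UMIs per cell, intervals that did not overlap. In Csf1r-positive barcodes Il18r1 stood at 2.44 and 4.10 CPM. Its partner chain Il18rap stood at 378 and 298 CPM, a log2 ratio of -0.34 that did not pass the fold. Il7r fell from 29.6 to 12.8 CPM on 17 of 145 and 53 of 822 members, a log2 ratio of -1.20. Its call was lost in 3 settings, at -0.93 with at least 3 marker genes, -0.84 without the top cell of each library and -0.62 without cells that held a C1q UMI. Il12rb2, a chain of the interleukin 12 receptor, stood at 340 and 357 CPM, and Il21r at 73.1 and 136 CPM. Of 15 receptors tested, 2 fell and none rose, with a median of -0.02.

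Of 17 genes of homing and retention tested, 1 rose, 2 fell and 14 passed neither fold. Itga1, the integrin chain CD49a that marks tissue-resident cells, fell from 79.2 to 27.6 CPM, a log2 ratio of -1.52 (-1.83 to -1.20). Cxcr4, which holds cells in the bone marrow and in tissues rich in its ligand, fell from 101 to 38.5 CPM, a log2 ratio of -1.40. Both were also lower in Csf1r-positive barcodes, by log2 ratios of -1.07 and -1.05. Itgax, the integrin chain CD11c, rose from 19.0 to 62.8 CPM, and from 26.2 to 91.8 CPM in Csf1r-positive barcodes. Itga4, an integrin chain of leukocyte homing, stood at 498 and 479 CPM. The median of this list was -0.05.

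Maturation of mouse NK cells runs from a CD27-high to a CD11b-high and KLRG1-positive stage. The early marker Cd27 rose from 47.4 CPM (37.9 to 58.6) to 116 CPM (109 to 124), giving a log2 ratio of 1.29 (0.97 to 1.63), and from 54 of 145 to 386 of 822 members. Other early genes did not follow it past the fold. Ctla2a stood at 1194 and 679 CPM, Emb at 569 and 407 CPM, and Tcf7, a factor of early lymphocytes, at 162 and 96.8 CPM. The late list was led by Gzmb in control and by Zeb2, a driver of terminal maturation (334 and 542 CPM), after anti-CD3L1. The surface markers that define the stage were less abundant than these genes in each library. Klrg1 stood at 46.3 and 63.4 CPM, Itgam, encoding CD11b, at 21.7 and 28.0 CPM, and S1pr5, which lets mature NK cells leave tissues, had no UMI in control, where 3 counts would be 1.67 CPM, and 27 UMIs (3.47 CPM) after anti-CD3L1. Of 10 early genes tested, 1 rose and none fell (median -0.21), and of 6 late genes none passed the fold (median 0.41). Cells with Cd27 and no Itgam numbered 44 in control and 336 after anti-CD3L1, and those with Itgam and no Cd27 numbered 15 and 93.

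Of 26 transcription factors tested, 1 rose and 1 fell. Tox, a chromatin factor required for NK cell development, rose from 109 CPM (94.5 to 126) to 274 CPM (263 to 286), giving a log2 ratio of 1.33 (1.12 to 1.55), and was found in 18.2% and 35.3% of members at 2000 UMIs per cell. Batf, an AP-1 factor of activated lymphocytes, fell from 74.2 to 29.1 CPM, a log2 ratio of -1.35. Irf8, which had UMIs in 144 and 797 members, stood at 1763 and 1447 CPM. Eomes stood at 257 and 257 CPM, and Bach2, a repressor of effector genes, at 961 and 1153 CPM. The list median was -0.19.

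Transcripts of dividing cells were found in a part of the NK cells of both libraries, and no cell cycle gene passed the fold among 18 tested (median 0.11). Mki67 had a UMI in 42 of 145 and 194 of 822 members, at 128 and 145 CPM, and Top2a in 46 and 204 members, at 162 and 160 CPM. Both genes were found together in 30 control and 116 anti-CD3L1 cells. At 2000 UMIs per cell Mki67 was detected in 9.09% (13 of 143) and 10.6% (86 of 812) of members, with overlapping counting intervals. In Csf1r-positive barcodes it was detected in 7.12% and 6.94%. Top2a was detected in 14.7% and 11.5% of members, beside 2.02% and 1.80% of Csf1r-positive barcodes. Whether Csf1r-positive cells were themselves dividing was not tested.

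Of 16 interferon-stimulated genes tested, 1 rose (Usp18, a brake on interferon signalling, 17.8 and 42.1 CPM) and none fell, with a median of 0.06. Isg15 stood at 91.4 and 114 CPM. None of 19 immediate early and heat shock genes passed the fold (median -0.23). Hspa1a, an inducible chaperone that also responds to tissue handling, stood at 886 and 564 CPM, and Fos at 113 and 193 CPM. None of 10 survival genes did so (median -0.16), and Bcl2, which blocks cell death, stood at 588 and 342 CPM. Among 13 genes of glycolysis and hypoxia, Vegfa fell from 135 to 60.2 CPM (log2 ratio -1.16, and -0.98 with each cell weighted equally) and none rose (median -0.13), with Gapdh at 800 and 791 CPM.

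**Figure D4:**
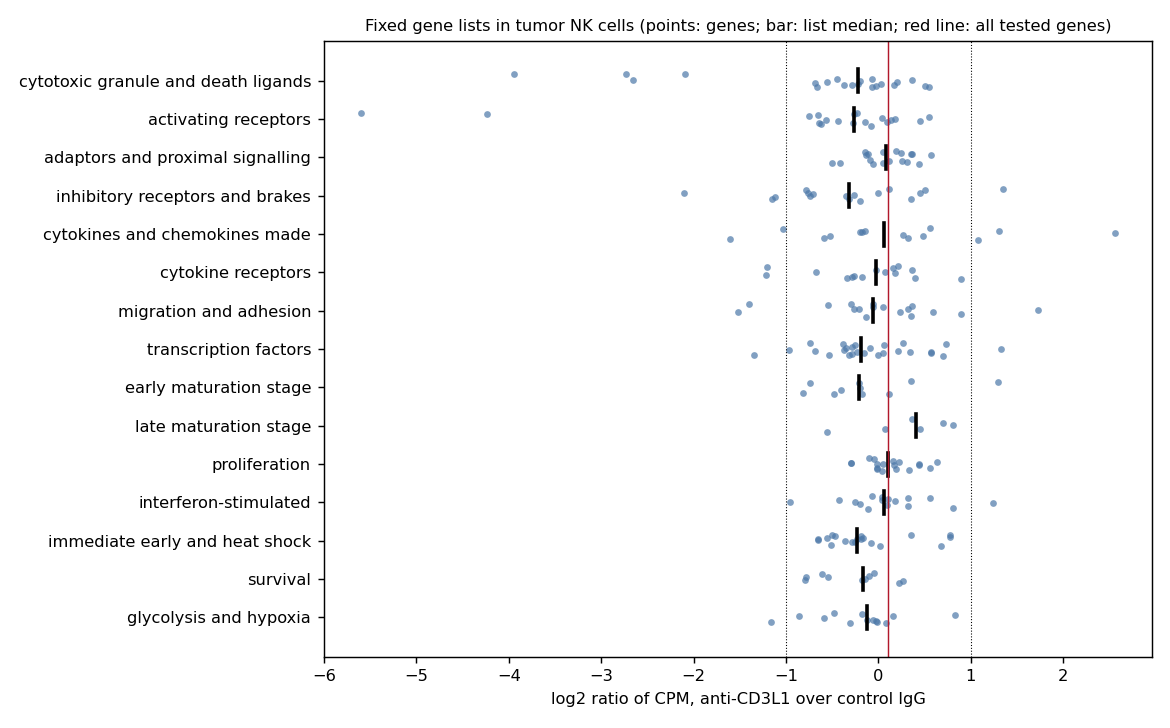
Log2 ratio of CPM, anti-CD3L1 over control IgG, for the tested genes of 15 gene lists; points are genes, black bars list medians, the red line the median of all tested genes (0.10) and dotted lines a log2 ratio of 1 in either direction. List medians lie between -0.32 and 0.41, with single genes such as Klra8, Klra4 and Gzmd far to the left.

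The genes with the widest changes lay outside these lists in part. Ly6e, a membrane protein anchored by a lipid, rose from 24.5 CPM (17.8 to 32.9) to 491 CPM (475 to 507), giving a log2 ratio of 4.32 (3.89 to 4.79). It was found in 18 of 145 control and 698 of 822 anti-CD3L1 members, with a median of 0 and 4 UMIs, and 1 control cell held 22 of the 44 control UMIs. At 2000 UMIs per cell Ly6e was detected in 2.10% of control (0.435 to 6.01%) and 55.8% of anti-CD3L1 members (52.3 to 59.2%). Csf1r-positive barcodes held Ly6e in both libraries, at 624 and 953 CPM. Ptprk, a receptor phosphatase, rose from 34.6 to 282 CPM (11 of 145 and 212 of 822 members), and in Csf1r-positive barcodes from 0.36 to 6.19 CPM. Tmem163, a zinc transporter, rose from 27.3 to 176 CPM, and from 30 of 145 to 383 of 822 members. Sh3rf1, Filip1 and Ctnnd2 rose by log2 ratios of 2.54, 2.35 and 2.13, and Rasgef1b, Supt4a and Eya1 by 1.68, 1.58 and 1.42. H2-Aa, a chain of MHC class II, rose from 46.3 to 155 CPM and from 1001 to 2732 CPM in Csf1r-positive barcodes. Without the highest doublet scores the log2 ratio of H2-Aa was 0.90. It was 0.65 after free RNA had been subtracted in the amounts given below. Nothing is drawn from that value, since the rule had limited the gene pair behind the amounts.

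Among the genes that fell most, some did so in other cells as well. Tpd52l1 fell from 142 CPM to 1.03 CPM in NK cells, a log2 ratio of -7.11, and from 76.3 to 0.727 CPM in Csf1r-positive barcodes. Mpp7 fell from 382 to 8.47 CPM in NK cells and from 182 to 1.16 CPM in Csf1r-positive barcodes, and AI662270 by log2 ratios of -2.18 and -2.89. Slpi and Ifitm1 fell by log2 ratios of -5.18 and -2.68 in NK cells, and stood at 2442 and 3509 CPM in the free RNA of the control library. For Slpi, 1 control cell held 201 of 360 UMIs. Ighg2c, an immunoglobulin heavy chain, came down to a single control cell with 374 of 377 UMIs, and no UMI was seen after anti-CD3L1. Igkc, an immunoglobulin light chain, had 767 of its 771 control UMIs in 1 cell, and without the top cell of each library its log2 ratio was 0.53. Gzmc, Gzmd and Gzme had the opposite sign in Csf1r-positive barcodes, where hardly any barcode held them. Gzmc stood there at 0.755 and 12.2 CPM. After thinning, it was found in 2 of 2078 control and 22 of 7130 anti-CD3L1 Csf1r-positive barcodes. Gzmd was found in 0 and 4 of them, and Gzme in 1 and 4. These ratios therefore say little, and whether the UMIs came from NK cells was not tested.

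**Figure D5:**
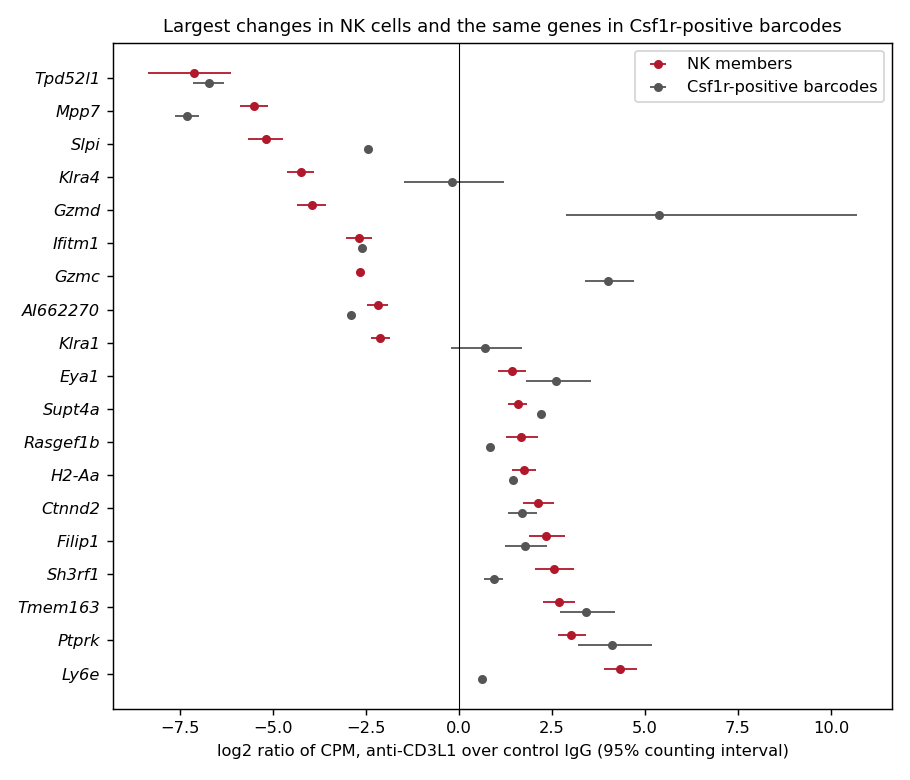
Log2 ratio of CPM, anti-CD3L1 over control IgG, with 95% counting intervals for the 10 genes that rose most and 9 of the 10 that fell most in NK cells at a mean of at least 50 CPM, outside the marker lists of other cells (red; Ighg2c has 0 UMIs after anti-CD3L1 and is not drawn), beside the same genes in Csf1r-positive barcodes (grey). Tpd52l1, Mpp7 and AI662270 lie far to the left in both. Klra4 is at -4.24 in NK cells and -0.19 in Csf1r-positive barcodes, where hardly any barcode held it and the ratio says little.

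The antibody is described as specific for the human protein, and human CD3L1 on the 143B cells was not analysed here. Itpripl1, the mouse counterpart of its gene, had 20 UMIs in 15 control members (11.2 CPM) and 61 UMIs in 58 anti-CD3L1 members (7.83 CPM). Nrp2, encoding the reported receptor of CD3L1, stood at 30.1 CPM (22.6 to 39.3) and 28.4 CPM (24.8 to 32.4) in NK cells, against 354 and 316 CPM in Csf1r-positive barcodes.

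Cell-to-cell spread within a library was measured by the Fano factor, the variance of a gene's UMIs over its mean, at 2000 UMIs per cell. The median gene had a Fano factor of 1.09 in each library. In control members the most uneven genes were Igkc, Ighg2c, Slpi and Cxcl2, each with most UMIs in 1 cell, and then Gzmc (23.1) and Ccl5 (17.99). Ighg2b, Cd74, Cxcl10, Gm42418, Gzma (9.20) and Malat1 completed the 12. After anti-CD3L1 the 12 held the NK effector genes Ccl5 (18.7), Gzmc (13.2), Gzma (11.8), Ccl4 (8.64), Ccl1 (8.27) and Xcl1 (7.71). The others were Gm42418 and Malat1, found in nearly every cell, and S100a9, Cd74, Spp1 and Ctsl, genes best known from myeloid cells. Ccl1, a chemokine of few cells, was found in 8 control and 57 anti-CD3L1 members.

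Transcripts known from other cells were found in members. Of the macrophage list, the genes with the most UMIs were Lyz2 in control, at 53.5 CPM against 160 CPM after anti-CD3L1, and Apoe after anti-CD3L1, at 42.9 and 225 CPM. Apoe stood at 2900 and 8251 CPM in the free RNA. A C1q transcript was found in 19 of 145 and 327 of 822 members, of which 0 and 6 held 10 or more. Spp1, a secreted protein of macrophages that lymphocytes can also make, stood at 428 and 684 CPM in members, against 235 and 1025 CPM in Csf1r-positive barcodes. If all S100a8 and S100a9 UMIs in members had come from free RNA, free RNA would make up 1.11% of control and 3.91% of anti-CD3L1 member UMIs. The rule had itself limited these UMIs in members, to a different effect in each library, since the limit alone removed 18 control and 2 anti-CD3L1 barcodes. The amounts are therefore a description and no estimate of all RNA from other cells. Subtracting them left 72 genes higher and 56 lower. These counts share that limit, so they cannot show how far the calls depend on RNA from other cells.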

How the data were processed

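The deposited matrices of both libraries hold UMI counts from Cell Ranger 7.1.0 for every barcode, called as a cell or not (1084690 barcodes and 74850604 UMIs for control IgG, 1548857 barcodes and 108246719 UMIs for anti-CD3L1). The submitters' processing notes name GRCm39, and no gene coordinates on that build are given here. A further deposited table, from Seurat 5.1.0, holds the authors' own fold changes and p-values and was not used.

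From the counts, barcodes were filtered and NK cells selected by the rule stated above. The members and the gene lists were chosen with earlier results of these data known. UMIs were summed over members of a library and divided by all their UMIs, as CPM. Intervals are at 95%, exact Poisson for CPM and exact binomial for shares and for ratios of CPM, and cover counting error only. A log2 ratio of at least 1 was called, among genes with a mean of at least 20 CPM. With 1 library per group no p-value was computed. Detection was compared after thinning each cell at random to 2000 UMIs, which left out 2 control and 10 anti-CD3L1 members. Csf1r-positive barcodes (2116 and 7275) and barcodes of 20 to 100 UMIs, taken as free RNA, served as comparisons. Doublets were kept, since the automatic threshold of Scrublet called 0 in each library; as an alternative the 586 and 1016 barcodes with the highest scores were left out. Besides the 4 rule genes, Nkg7 and Xcl1, the text names the members of the lists with the highest CPM or the widest ratios, the 10 largest and 10 smallest ratios at a mean of at least 50 CPM outside the marker lists of other cells, the 15 genes most raised over other barcodes and the 12 most uneven genes. Further genes, such as Ccl3, Fasl, Tigit and S1pr5, were named after their values were seen. Promoters came from RefSeq on GRCm38.p6. The ratio and its interval were tested on simulated Poisson counts. These had no spread between cells, so the check does not cover genes held by few cells. Python 3.11.15 was used with biopython 1.88, scanpy 1.11.5, scipy 1.17.1, matplotlib 3.10.9, pandas 2.3.3 and numpy 2.4.6.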

Additional observations from a re-analysis of the deposited data

Results flagged for a closer look

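The transcript AU020206 moved in opposite directions in 2 cell classes. In NK cells it fell from 168 to 71.3 CPM, a log2 ratio of -1.24 (-1.44 to -1.03), and in Csf1r-positive barcodes it went from 24.8 to 54.4 CPM, a log2 ratio of 1.13. The difference between the classes was not tested, and 1 control cell held 42 of its 301 control UMIs.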

How the results depend on the processing

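With 1 library per group nothing beyond counting error could be estimated, and cells of 1 library are not replicates. No paired analysis was possible because each group had 1 library. The NK share was 1.43% in control and 5.63% after anti-CD3L1 with at least 3 marker genes, 1.47% and 4.39% without cells that held a C1q UMI, and 1.78% and 7.83% without the highest doublet scores. Genes called higher and lower numbered 79 and 58. They numbered 32 and 35 at a mean of at least 50 CPM, 1219 and 5145 with no minimum (where genes of very few UMIs enter) and 304 and 166 after thinning to 2000 UMIs, which leaves fewer counts per gene. Without the neutrophil limit 88 were lower. Without the cell of each library with the most UMIs of a gene, a setting chosen after seeing the data, 130 were higher and 40 lower; it takes 1 of 145 control cells but 1 of 822 after anti-CD3L1. Scaling without S100a8, S100a9, mitochondrial and ribosomal genes gave 90 and 74, and weighting each cell equally 99 and 53. Of 41 called genes followed singly, between 36 and 41 passed the fold in the same direction under each alternative. They include the genes named for the widest ratios in these same data, a choice that favours keeping the fold. Changing or dropping the CPM minimum left every ratio as it was, so 41 of 41 was certain there. This range therefore cannot show how well calls hold in general. Over all calls, 79 of 79 higher but 39 of 58 lower genes passed the fold in the same direction without the top cell of each library. That setting takes a larger part of the control cells and tends to raise the ratios, so it cannot support the rises. Cxcl2 reversed to 0.65 with at least 3 marker genes, where the cause was not tested. H2-Aa lost its call without the highest doublet scores, and Ccl5, Klra9, Vegfa, Gzmf and Il7r lost theirs in the settings given beside them. Klra5 was at -0.89 and Tnfsf14 at -0.57 in their weakest settings.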
